A study of Mus musculus with 4 samples.

Results

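The genes described here are 10 well-known transcriptional targets of p53: Ccng1, Cdkn1a, Mdm2, Aen, Bbc3, Phlda3, Sesn1, Trp53inp1, Zmat3 and Btg2. A probe set, the group of short probes that reads 1 transcript on an Affymetrix array, was taken where the array annotation gave it a single gene symbol and that symbol was one of the 10. This gave 23 of the 45037 probe sets that are not array controls, and 10 of 18193 named genes. The arrays carried cytoplasmic RNA of Neuro2A, a mouse neuroblastoma line, with 2 arrays of cells depleted of endogenous 4.5SH (4.5SH knockdown) and 2 of control cells, called biological replicates in the labels. 4.5SH is a small noncoding RNA of rodents related to the B1 repeat, and the stated aim was to find antisense-B1 genes on which it acts. Per the labels' protocols the cells were transfected with antisense oligonucleotides at 30 nM and lysed in CSK buffer, and the supernatant was taken as cytoplasm. Both groups are of the same line, no allele or further agent is named for either, and the sources used here do not say what the control cells were transfected with. Loss of 4.5SH and other effects of the oligonucleotides therefore cannot be told apart, and since 4.5SH itself was not analysed here, its depletion is taken from the labels.

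p53 is a transcription factor that is held low in unstressed cells by the ubiquitin ligase Mdm2 and accumulates after DNA damage and other stresses. It binds a response element in DNA and raises the transcription of genes that stop the cell cycle, repair DNA, limit oxidative damage or start apoptosis, and of Mdm2 itself, which closes a negative feedback loop. A coordinated rise of such targets is a common readout of p53 activity in cultured cells.

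Values are MAS5 signals, which are brightness on a linear scale. Differences are log2 fold changes of signal + 16, 4.5SH knockdown over control, with the standard error after ±, from limma over all 22519 probe sets with a mean signal of about 16.4 or more. A change was called at an adjusted p below 0.05, and dim probe sets are understated on this scale. The 2% trimmed mean signal was 128 and 132 in the knockdown against 149 and 143 in the control, and over the tested probe sets log2 fold changes had a median of -0.11, so an ordinary probe set sat somewhat below 0. Log2 profiles correlated at 0.9914 within the knockdown, 0.9911 within the control and 0.9708 to 0.9733 between groups. Precision is limited by there being 4 arrays in all, and with 2 against 2 an exact permutation test cannot go below p = 0.333. Of 14 neuroblastoma and neuronal markers 12 had a probe set and 10 passed the filter, among them Phox2a, Hand2 and Gata2, while Gata3 and Th did not. Their summed signal was 8230 to 8340 in the knockdown and 9282 to 9341 in the control, the largest part being that of Stmn2 (means 3587 and 4034). With 1 probe set a gene, 3 of the 10 were called lower (30.0%, against 35.2% of all genes). Elavl4 (0.89) was called higher, 1 of the 10 (10.0%, against 9.79%). Of 7 leukocyte markers 6 had a probe set, with a summed signal of 441 to 448 in the knockdown and 790 to 868 in the control, mostly that of Cd68. Ptprc and Cd3e were below the filter. Of 7 fibroblast markers, all measured, 5 were below it (sum 120 to 123 in the knockdown and 110 to 120 in the control), and of 7 glial markers 6 were measured and 3 were below it (sum 84.2 to 109 in the knockdown and 69.6 to 97.3 in the control). Nuclear RNAs summed to 124 to 158 in the knockdown and 501 to 529 in the control over 6 genes, a difference that came mostly from 1 probe set of Malat1 (-2.50). Of its 4 tested probe sets 2 were called lower and 1 higher, with a mean of -0.60, so the sum gives no single reading of the fraction's purity. Neat1 was called lower at 1 of 2. Miat (0.37) and Meg3 (0.36) did not pass. Their control means, 16.2 and 13.2, lay below the filter, so only their knockdown signals brought them into the test. The part of these markers in the results below was not tested.

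The 10 genes did not move as one. Ccng1 rose at each of its 3 probe sets, whereas single probe sets of Cdkn1a, Bbc3 and Sesn1 and 2 of 4 of Aen fell, of which the dimmer Aen probe set passed the filter through its control signals alone. Mdm2, Phlda3, Trp53inp1, Zmat3 and Btg2 had no probe set that passed. Of the 23 probe sets 20 were bright enough to be tested, and of these 3 were called higher (15.0%, against 9.73% of all tested probe sets) and 5 lower (5 of 20, against 25.8%). The share called lower was thus near that of the whole array. The higher calls were all of 1 gene. With quantile scaling 3 were called higher and 4 lower, against 16.9% higher and 16.7% lower of all tested probe sets. In 13 of the 20 (65.0%) the knockdown arrays did not overlap the control arrays, against 66.8% of all tested probe sets. Their own median was -0.19 on the log2 scale, somewhat below that of the array.

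**Figure D1:**
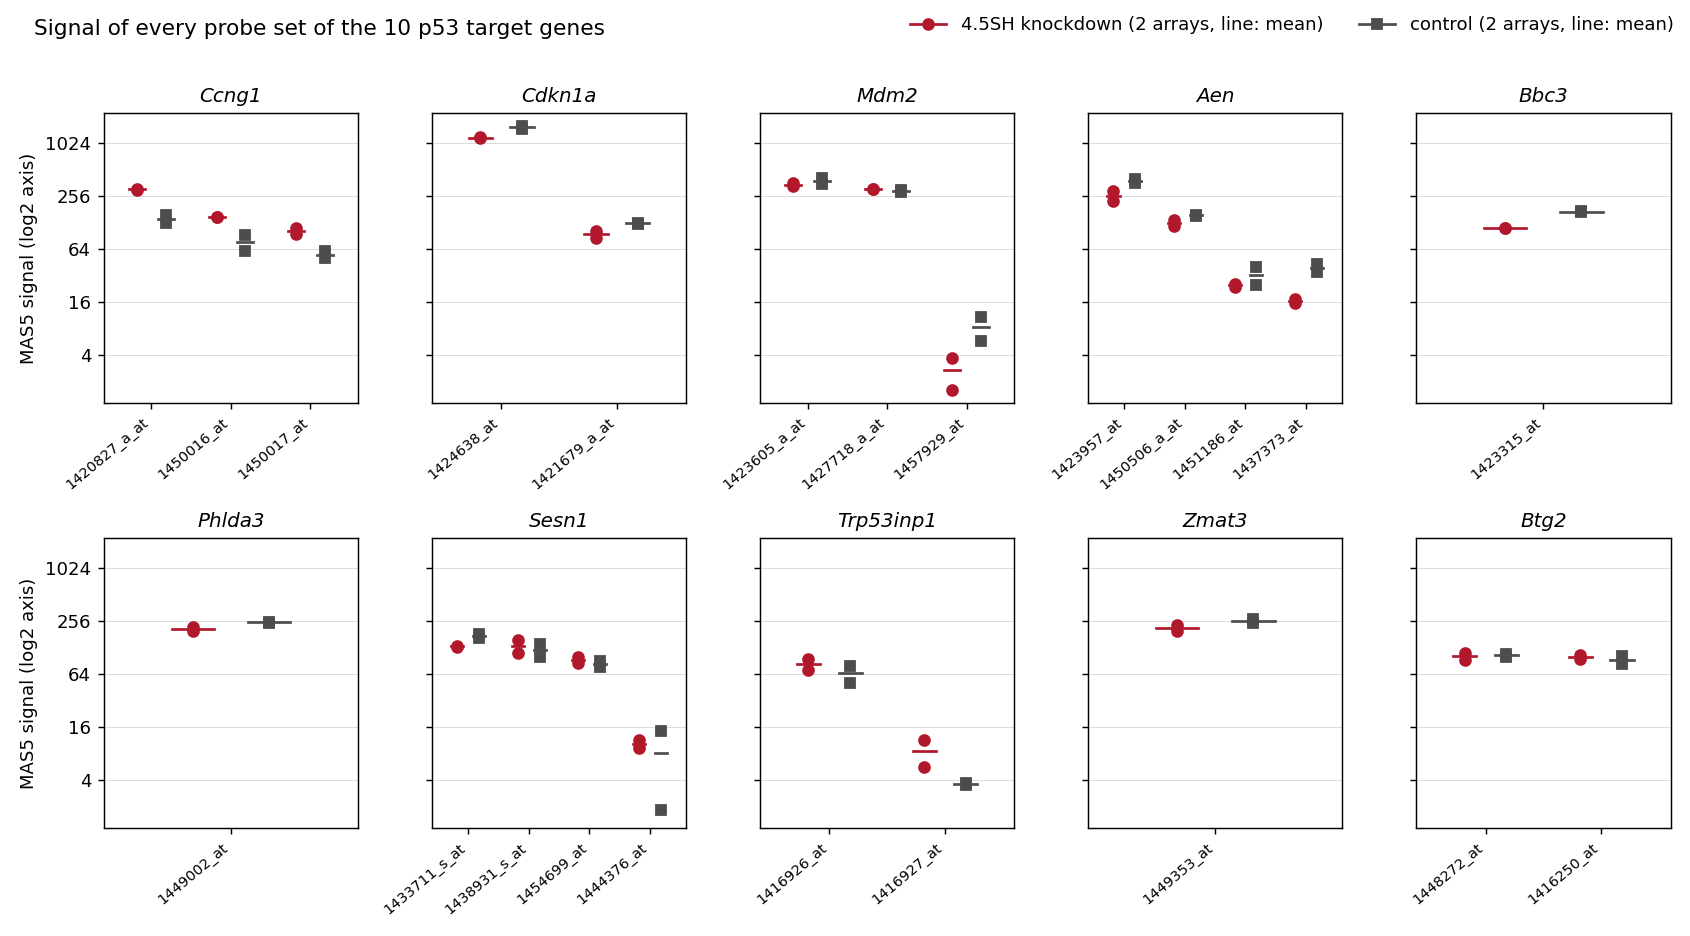
MAS5 signal of each of the 23 probe sets of the 10 genes, on a log2 axis; circles are the 2 arrays of 4.5SH knockdown, squares the 2 control arrays, and short lines the group means. All 3 Ccng1 probe sets are higher in the knockdown, and the 3 probe sets drawn near the foot of the panels for Mdm2, Sesn1 and Trp53inp1 lie below the filter.

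Ccng1 encodes cyclin G1, an early and widely used p53 target that recruits protein phosphatase PP2A and acts back on Mdm2. Its brightest probe set, 1420827_a_at, had signals of 300.3 and 309.3 in the knockdown, against 153.6 and 124.3 in the control. Both knockdown arrays were above both control arrays, with means of 305 ± 6.36 and 139 ± 20.7 (SD, n = 2 each), a ratio of 2.19. The log2 fold change was 1.06 ± 0.12 (limma, adjusted p = 1.66e-05), and 86 of the 22519 tested probe sets, this one included, were at least as high. Probe set 1450016_at read 148.7 and 148.7 in the knockdown, against 60.7 and 91 in the control, a log2 fold change of 0.86 ± 0.16 (limma, adjusted p = 0.000918). Here the control replicates lay further apart than at the brightest probe set, yet both stayed below the knockdown. Probe set 1450017_at read 93.3 and 109.3 in the knockdown, against 60.1 and 50 in the control, a log2 fold change of 0.72 ± 0.16 (limma, adjusted p = 0.00284). The 3 probe sets were designed on the same source sequence, so they are repeated readings of 1 transcript and not separate evidence. Relative to the median of the array the 3 differences were 1.17, 0.97 and 0.84. Each stayed called and positive in every alternative that measured it.

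The promoter of Ccng1 is shown because it holds a near-perfect p53 response element, here in capitals. The window runs from 250 bases before to 50 bases after the start site given by RefSeq, on GRCm38.p6, chr11:40755237-40755536, minus strand, written 5′ to 3′ along the gene:
Ccng1 promoter: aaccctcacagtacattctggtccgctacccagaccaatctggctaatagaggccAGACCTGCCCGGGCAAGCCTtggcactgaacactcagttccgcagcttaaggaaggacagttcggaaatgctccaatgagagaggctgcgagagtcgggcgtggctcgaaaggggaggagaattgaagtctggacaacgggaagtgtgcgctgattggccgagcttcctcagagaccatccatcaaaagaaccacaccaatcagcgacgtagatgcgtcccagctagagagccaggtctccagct
The p53 response element was searched for by its consensus, which is 20 bases made of 2 adjoining 10-base units and reads the same on both strands. The best match in the Ccng1 window differs from it at 1 base and lies at chr11:40755462-40755481, beginning at position -195 from the start site.

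Cdkn1a encodes p21, the inhibitor of cyclin-dependent kinases through which p53 halts the cell cycle. Its brighter probe set, 1424638_at, had signals of 1190.7 and 1154.2 in the knockdown, against 1581.6 and 1475.2 in the control. The groups did not overlap, and the ratio of the means, 1172 ± 25.8 and 1528 ± 75.2 (SD, n = 2 each), was 0.77. Cdkn1a fell by 0.38 ± 0.07 on the log2 scale (limma, adjusted p = 0.000522), or -0.27 relative to the median of all tested probe sets. The dimmer probe set, 1421679_a_at, read 102.8 and 85.1 in the knockdown, against 127 and 122.3 in the control. It had nearly the same log2 fold change, -0.36 ± 0.14, and did not pass (limma, adjusted p = 0.0606, 95% interval -0.66 to -0.06). With quantile scaling the brighter probe set was at -0.22 and still called. Thus Cdkn1a was lower on the same arrays on which Ccng1 was higher.

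RefSeq gives 2 start sites for Cdkn1a, 2790 bases apart. The upstream window, chr17:29090729-29091028, plus strand, is shown for comparison with Ccng1, since it too holds the element with 1 mismatch, at chr17:29090928-29090947 and position -51 (capitals):
Cdkn1a upstream promoter: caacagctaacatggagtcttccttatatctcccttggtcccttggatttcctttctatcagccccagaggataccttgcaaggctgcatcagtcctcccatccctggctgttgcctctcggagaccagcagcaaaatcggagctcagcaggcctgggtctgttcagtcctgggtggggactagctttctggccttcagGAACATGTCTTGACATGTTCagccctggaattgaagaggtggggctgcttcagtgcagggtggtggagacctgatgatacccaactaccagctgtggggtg
Of 32851 promoter windows of this length in the RefSeq table, 29 (0.0883%) held the element with at most 1 mismatch. Of 13 windows of 8 of the genes, 2 did, those of Ccng1 and Cdkn1a. Both genes were known as p53 targets when they were put together here, so the matches describe the group. The window of Ccng1, which rose, and 1 of the 2 windows of Cdkn1a, which fell, thus each held the element with 1 mismatch, at different positions. The part of the element in these values was not tested.

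**Figure D2:**
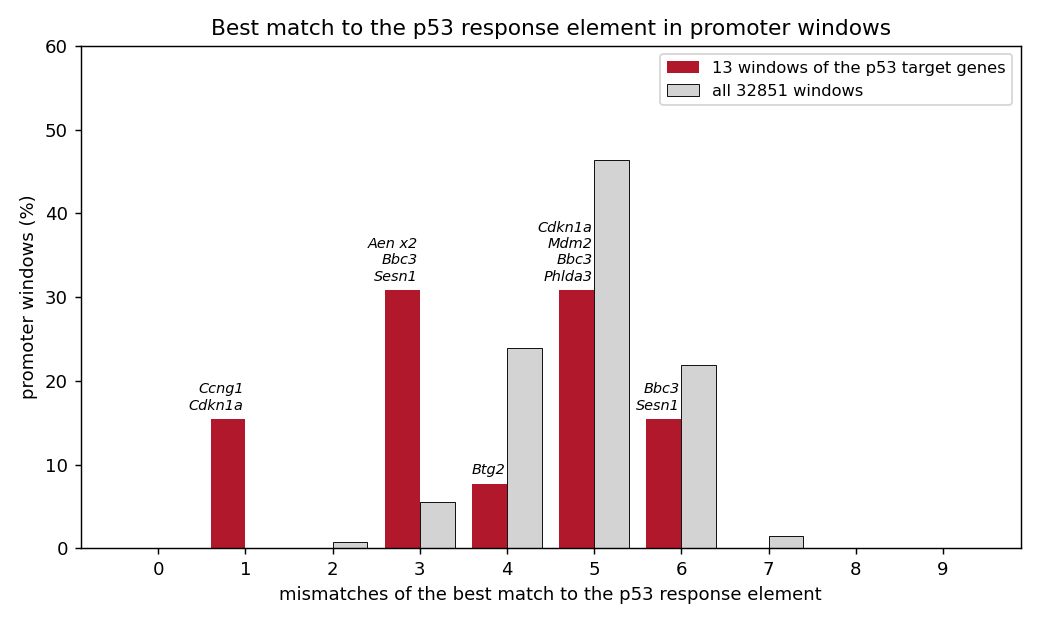
Best match to the 20-base p53 response element in each promoter window, as the share of windows in % by the number of mismatches, where red bars are the 13 windows of the p53 target genes, with their genes named, and grey bars all 32851 windows. The Ccng1 window and 1 Cdkn1a window have 1 mismatch and 4 further windows have 3, while most windows of the table have 4 to 6.

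Bbc3 encodes PUMA, a BH3-only protein that starts mitochondrial apoptosis. Its only probe set, 1423315_at, read 110.4 and 110.6 in the knockdown, against 165.6 and 170.1 in the control. The replicates lay closer together than the groups by a wide margin, and Bbc3 fell by 0.54 ± 0.12 (limma, adjusted p = 0.00359), a ratio of 0.66. Aen encodes a nuclease that p53 induces and that cleaves DNA during apoptosis. Its brightest probe set, 1423957_at, read 223.4 and 287.5 in the knockdown, against 355.3 and 401 in the control, and fell by 0.55 ± 0.12 (limma, adjusted p = 0.00274). Without the intensity trend in the variance its adjusted p was 0.0589. The dimmest, 1437373_at, read 15.4 and 17 in the knockdown, against 34.5 and 42.6 in the control, and fell by 0.76 ± 0.21 (limma, adjusted p = 0.0135). Its knockdown mean of 16.2 lay just below the filter of 16.4, so only its control signals brought it into the test. The call was lost without the filter (limma, adjusted p = 0.102), without knockdown replicate 1 (0.0601), without control replicate 2 (0.0980) and at a threshold of 0.01. The other 2 probe sets of Aen had negative values that did not pass. Of these 1450506_a_at read 115.6 and 137.4 in the knockdown, against 154.5 and 151.9 in the control, at -0.25 ± 0.13. The last, 1451186_at, read 23.8 and 25.5 in the knockdown, against 24.6 and 39.8 in the control, with overlapping groups, at -0.23 ± 0.22.

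Phlda3, a PH-domain protein that competes with the kinase Akt for membrane lipids, was measured by 1449002_at with signals of 218.8 and 194.9 in the knockdown, against 251.4 and 241.8 in the control. The groups did not overlap, but the log2 fold change of -0.24 ± 0.11 did not pass (limma, adjusted p = 0.107). Trp53inp1, a stress protein that promotes p53 phosphorylation and autophagy, read 70.5 and 94.1 at 1416926_at in the knockdown, against 79.5 and 50.4 in the control. The groups overlapped and the value was 0.29 ± 0.19 (limma, adjusted p = 0.267, 95% interval -0.12 to 0.71). Its second probe set, 1416927_at, lay below the filter, at 5.6 and 11.2 in the knockdown, against 3.7 and 3.5 in the control, without overlap. The second probe set was not tested. The value of 1416926_at depended on each array. It was 0.47 without knockdown replicate 1 and 0.12 without knockdown replicate 2, and 0.56 without control replicate 1 and 0.03 without control replicate 2. At 0.56 it did not pass in the fit over probe sets (limma, adjusted p = 0.0537) but did in that with 1 probe set a gene (adjusted p = 0.0188).

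Mdm2, the ubiquitin ligase that degrades p53 and is its feedback target, showed no called change. At 1423605_a_at it read 328.7 and 353.4 in the knockdown, against 409 and 352.6 in the control, with overlapping groups and a log2 fold change of -0.15 (95% interval -0.37 to 0.07, limma, adjusted p = 0.275). At 1427718_a_at it read 308.1 and 303 in the knockdown, against 279.2 and 301.6 in the control, at 0.07 (95% interval -0.14 to 0.28, limma, adjusted p = 0.618). These 2 bright probe sets thus had opposite signs. With 1 array left out 1423605_a_at ran from -0.25 (without control replicate 2) to -0.05 (without control replicate 1) and 1427718_a_at from 0.02 (without control replicate 1) to 0.12 (without control replicate 2), none of them called. Both intervals lie below the 0.72 to 1.06 of the Ccng1 probe sets. The third, 1457929_at, was dim, at 3.7 and 1.6 in the knockdown, against 5.7 and 10.8 in the control.

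Sesn1 encodes sestrin 1, which restrains the growth kinase mTORC1 and lowers peroxides. Its 4 probe sets differed. The brightest, 1433711_s_at, read 133.7 and 130.4 in the knockdown, against 180.6 and 165.6 in the control, and fell by 0.35 ± 0.12 (limma, adjusted p = 0.0354). Probe set 1454699_at, designed on the same source sequence, read 84 and 100.8 in the knockdown, against 88.9 and 77.1 in the control, at 0.13 ± 0.15, and 1438931_s_at read 110.3 and 153.8 in the knockdown, against 100 and 138.1 in the control, also at 0.13. In both of these the groups overlapped. Among probe set fits the fall was called in 6 of 16 alternatives and in none that left out an array (limma, adjusted p 0.0506 to 0.166), and the mean of the tested probe sets was -0.03. By the maker's naming, the ending _s_at marks probe sets that can also match transcripts of other genes. The dim probe set 1444376_at read 9.3 and 11.4 in the knockdown, against 1.8 and 14.2 in the control.

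Zmat3, a zinc finger RNA-binding protein that p53 induces, read 198.1 and 229.3 at 1449353_at in the knockdown, against 269.4 and 240.9 in the control. It did not overlap between groups and did not pass, at -0.24 ± 0.11 (limma, adjusted p = 0.119). It ran from -0.14 without knockdown replicate 1 to -0.34 without knockdown replicate 2, and at -0.32, without control replicate 2, it passed in the fit with 1 probe set a gene (limma, adjusted p = 0.0478) but not in that over probe sets (0.0995). Btg2, an antiproliferative protein that recruits the CCR4-NOT deadenylase, was at -0.04 and 0.10 at its 2 probe sets. At 1448272_at it read 109.8 and 92.7 in the knockdown, against 107.6 and 100.8 in the control, and at 1416250_at 105.1 and 95.2 in the knockdown, against 101.9 and 83.4 in the control. Both overlapped between groups, with 95% intervals of -0.34 to 0.27 and -0.22 to 0.42.

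**Figure D3:**
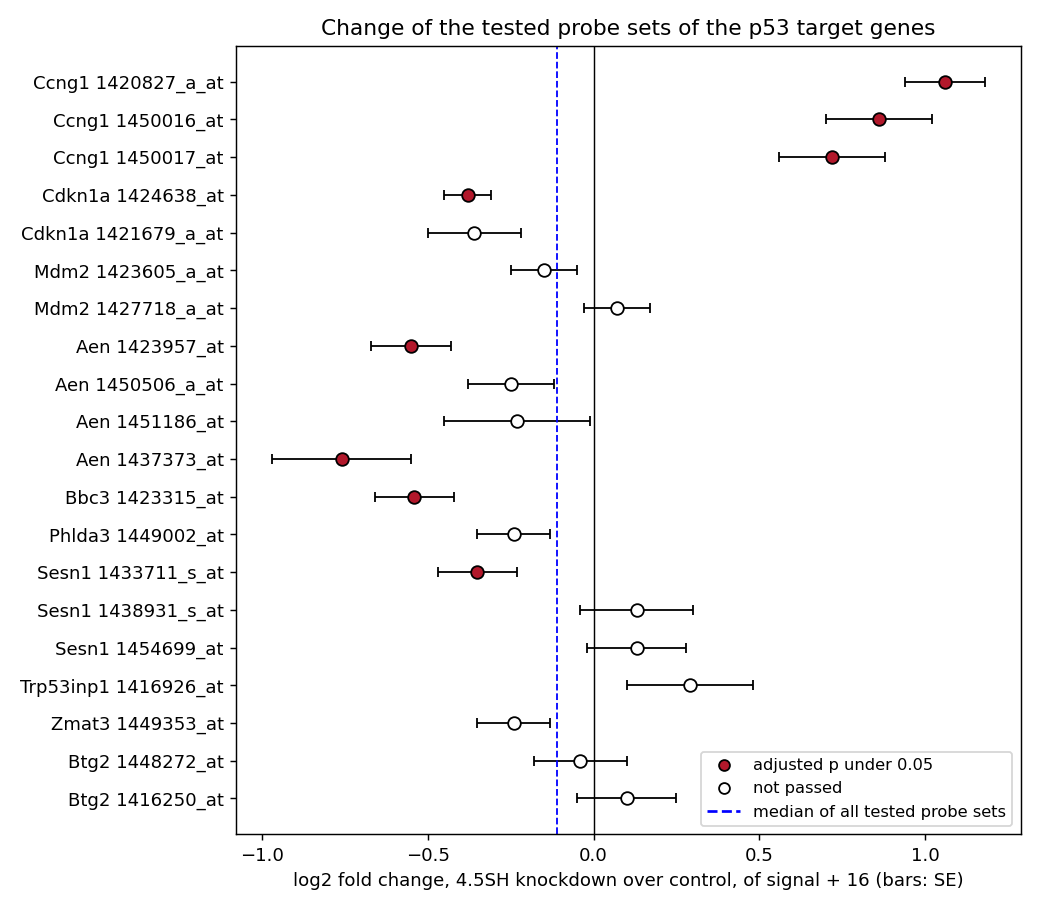
Log2 fold change of signal + 16, 4.5SH knockdown over control, of the 20 tested probe sets, with bars of 1 standard error (2 arrays a group); filled points had an adjusted p under 0.05, and the dashed line is the median over the array, -0.11. The 3 Ccng1 points lie at 0.72 to 1.06, apart from all others, the next being Trp53inp1 at 0.29.

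Replicates of these genes were close. The ratio of the higher to the lower replicate had a median of 1.11 in the knockdown and 1.14 in the control over the 20 tested probe sets. Its largest values were 1.39 in the knockdown, at Sesn1 1438931_s_at, and 1.62 in the control, at Aen 1451186_at. Only Ccng1, at its 3 probe sets, and Aen 1437373_at, at the filter in the knockdown, had group means that differed by more than 1.62-fold in either direction.

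Spike-in scaling lowered all 20 values and quantile scaling raised them. With quantile scaling Ccng1 1420827_a_at was at 1.22, Bbc3 at -0.40, Aen 1423957_at at -0.37 and Cdkn1a 1424638_at at -0.22, all still called, and Sesn1 1433711_s_at was at -0.21 and not called. Scaled on the 9 hybridization spike-ins, which shifted the median of all tested probe sets to -0.23, 9 of the 20 were called lower, against 34.4% of all tested probe sets. Phlda3 and Zmat3 then both passed, each at -0.38 (limma, adjusted p = 0.0247 and 0.0277). Mdm2 1423605_a_at, at -0.29, passed in the fit with 1 probe set a gene (limma, adjusted p = 0.0416) but not in that over probe sets (0.0673). Ccng1 stayed higher on each scale, and Cdkn1a 1424638_at, Bbc3 and Aen 1423957_at lower. Whether Mdm2, Phlda3, Sesn1 and Zmat3 counted as lower depended on the scale (for Sesn1 and Zmat3 on single arrays as well), and the signs of both Mdm2 and both Btg2 probe sets did too.

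**Figure D4:**
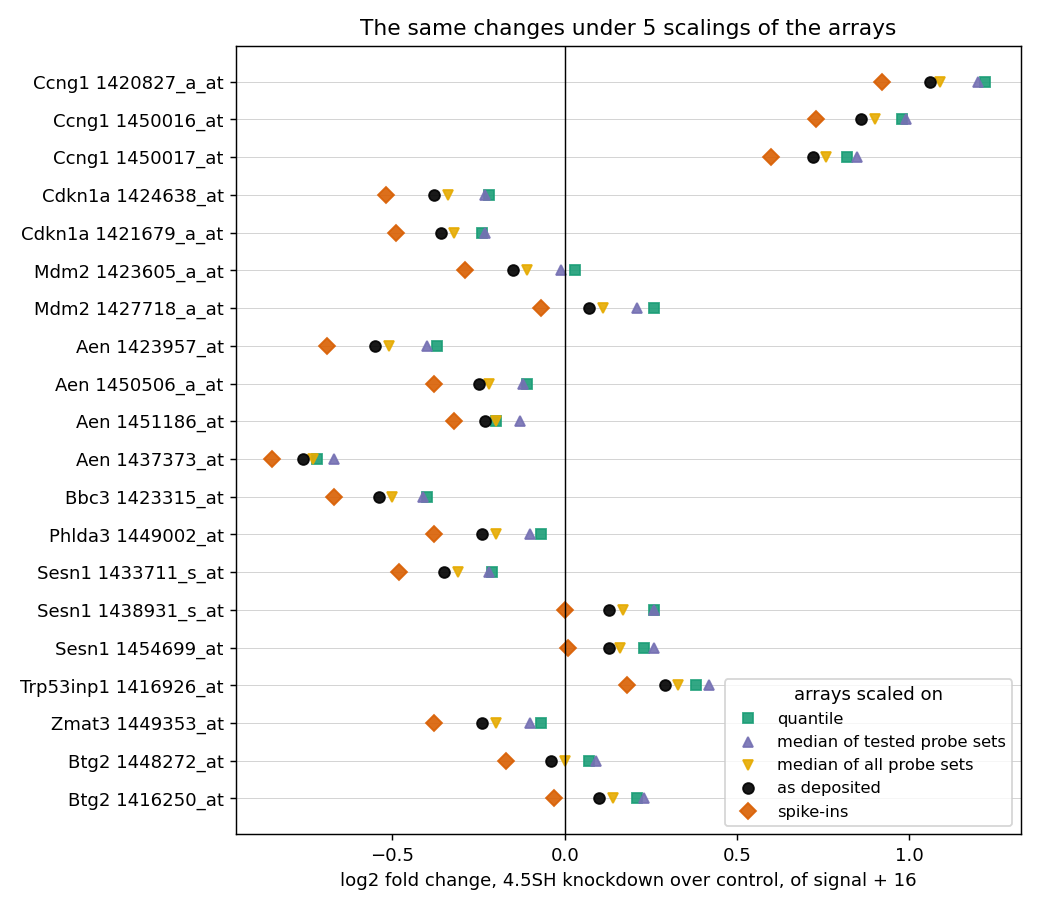
Log2 fold change of signal + 16, 4.5SH knockdown over control, of the 20 tested probe sets under 5 scalings of the arrays, of which spike-in scaling gives the lowest and quantile scaling or centring on tested probe sets the highest values. Ccng1 lies right of 0 on every scale, and Cdkn1a, Bbc3 and Aen left of it, while the signs of the Mdm2 and Btg2 probe sets change between scalings.

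The remaining promoters varied more. Of the 13 windows of 8 genes, 6 held at least 1 of the 10-base units without mismatch, against 8.36% of all windows. Start sites of 1 gene count separately, and the windows of Aen overlap. The best 20-base matches are given with the number of mismatches, each on the strand of its gene, to set them beside Ccng1 and Cdkn1a:
Ccng1, 1 mismatch: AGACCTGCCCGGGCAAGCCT
Cdkn1a, 1 mismatch: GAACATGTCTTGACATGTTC
Aen, 3 mismatches: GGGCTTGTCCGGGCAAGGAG
Bbc3, 3 mismatches: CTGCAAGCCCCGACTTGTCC
Sesn1, 3 mismatches: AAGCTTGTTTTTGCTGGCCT
Btg2, 4 mismatches: GGGAAAGTCCGGGCAGAGCC
Mdm2, 5 mismatches: GAACTTGCCTAGCGACCATT
Phlda3, 5 mismatches: GGCCCTGTCCGGGCGGGTGC
They lie at chr7:78895937-78895956 for Aen, chr7:16309486-16309505 for Bbc3, chr10:41887266-41887285 for Sesn1, chr1:134079112-134079131 for Btg2, chr10:117710925-117710944 for Mdm2 and chr1:135766042-135766061 for Phlda3 (GRCm38.p6). With at most 3 mismatches the element was in 6.29% of all windows. p53 also binds in introns and far from start sites, which these windows do not cover. Of the 5 genes with at most 3 mismatches Ccng1 rose and Cdkn1a, Aen, Bbc3 and Sesn1 had a probe set that fell. Btg2, Mdm2 and Phlda3, with more, had none that passed. The best window of each gene was taken, and further windows had 5 mismatches for Cdkn1a, 5 and 6 for Bbc3 and 6 for Sesn1. Btg2, Mdm2 and Phlda3 had a single window each, and Trp53inp1 and Zmat3, also without a call, had none. The Sesn1 fall was called at 1 of 3 tested probe sets. The match is a description of these genes, and its part in the values was not tested.

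The rest of the pathway was described with 1 probe set a gene, the brightest tested, in a fit over 11804 genes whose median log2 fold change was -0.16. On this footing 1 of the 10 members was called higher (Ccng1, against 9.79% of all genes) and 4 lower (Cdkn1a, Aen, Bbc3 and Sesn1, against 35.2%), with a median of -0.24. Of 50 other p53 targets 46 were on the array under a single symbol, and 35 passed the filter. Of these 2 rose (5.71%, against 9.79% of all genes), 17 fell (48.6%, against 35.2%) and 16 did not pass, with a median of -0.27. Some of the 17 had no probe set called lower in the fit over probe sets. With quantile scaling 4 rose (11.4%) and 10 fell (28.6%), against 17.7% higher and 22.6% lower of all genes. Taking the mean of all tested probe sets of a gene, 2 rose and 15 fell, against 9.13% and 31.6% of all genes. The 2 that rose were Zfp365, which guards replication forks (0.79 ± 0.10, higher at 1 of 2 tested probe sets), and the spindle protein Ckap2 (0.35 ± 0.09). The falls with the smallest p were Ephx1, a microsomal epoxide hydrolase (-0.57 ± 0.08), Ddit4, an inhibitor of mTORC1 (-0.40 ± 0.06), and the apoptotic adaptor Siva1 (-0.69 ± 0.11, lower at 3 of 4).

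Of 30 genes for p53 and its regulators 27 had such a probe set and 25 were tested; Trp53 itself was not analysed here. Of the 25, 3 rose (12.0%, against 9.79% of all genes), 11 fell (44.0%, against 35.2%) and 11 did not pass, with a median of -0.23. With quantile scaling 7 of the 25 rose (against 17.7% of all genes) and 8 fell (32.0%, against 22.6%). Hipk2, a kinase of p53, was higher at 2 of 6 tested probe sets, and its brightest had signals of 187.3 and 206.7 in the knockdown, against 102.4 and 92.1 in the control (0.91 ± 0.13). The mean over its probe sets was 0.49. Sirt1, a deacetylase of p53, rose by 0.63 ± 0.10 and Ep300, an acetyltransferase and p53 coactivator, by 0.39 ± 0.09. Mdm4, the partner of Mdm2 that blocks p53's activation domain, read 127.8 and 130.2 in the knockdown, against 194.5 and 196.5 in the control, and fell by 0.54 ± 0.12 (limma, adjusted p = 0.00103) at 1 of 3 tested probe sets. The ribosomal protein Rps27l fell by 0.36 ± 0.05 at its brightest of 3 probe sets, all called lower, and the 53BP1 gene Trp53bp1 fell by 0.32 ± 0.06. For the checkpoint kinase Chek1 the brightest probe set fell by 0.43 ± 0.08, the only one of 3 to be called, and the mean of the 3 was -0.14. The brightest probe sets of Mdm4 and Chek1 end in _s_at and so can also match transcripts of other genes. Without _x_at or _s_at probe sets 9 regulators fell, against 34.7% of all genes.

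Close relatives of the 10 genes moved in both directions. Of 20 listed 15 were tested, of which 2 rose (13.3%, against 9.79% of all genes), 4 fell (26.7%, against 35.2%) and 9 did not pass, with a median of 0.04. With quantile scaling 4 rose and 4 fell (26.7% each, against 17.7% and 22.6%). Ccng2, the nearest relative of Ccng1 and named here after its values were seen, read 450.1 and 471.6 in the knockdown, against 436.5 and 394.2 in the control, and was at 0.15 ± 0.09, not passed, and at 0.33 and called with quantile scaling. Btg1 (0.66 ± 0.12) and Tob1 (0.45 ± 0.08), of the same antiproliferative family as Btg2, rose. Phlda2, an imprinted placental growth inhibitor, had signals of 11.5 and 23.7 in the knockdown, against 56.9 and 61.5 in the control (-1.19 ± 0.22). Phlda1 (-0.34 ± 0.06) and the exonuclease Isg20, a relative of Aen (-0.77 ± 0.16), fell as well. So did Mdm4, which is counted both here and among the regulators. Sesn2 and Trp53inp2, which did not pass, are counted both here and among the other p53 targets.

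Cell cycle genes that p53 lowers through p21 and the DREAM repressor complex also moved in both directions. Of 20 listed 19 were tested, of which 4 rose (21.1%, against 9.79% of all genes), 9 fell (47.4%, against 35.2%) and 6 did not pass, with a median of -0.19. With quantile scaling 4 rose (21.1%, against 17.7%) and 8 fell (42.1%, against 22.6%). Among the 9 is Top2a, named after its values were seen, whose brightest probe set was at -0.13 while its other tested probe set was called higher and their mean was 0.39. Mcm5, also among the 9 and named in the same way, was at -0.44 at its brightest. Of its 3 tested probe sets 2 were called lower and 1 higher, with a mean of -0.11. By the mean of all tested probe sets of a gene 5 of the 19 rose and 7 fell, against 9.13% and 31.6% of all genes. Birc5, which encodes survivin, was lowest (-1.13 ± 0.07), followed by the phosphatase Cdc25c (-0.94 ± 0.10), while the kinase subunit Cks1b was at -0.46 ± 0.05 and also called. Cyclin A2, Ccna2 (0.59 ± 0.09), the cytokinesis factor Ect2 (0.41 ± 0.09) and the checkpoint kinase Bub1 (0.23 ± 0.08) rose.

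**Figure D5:**
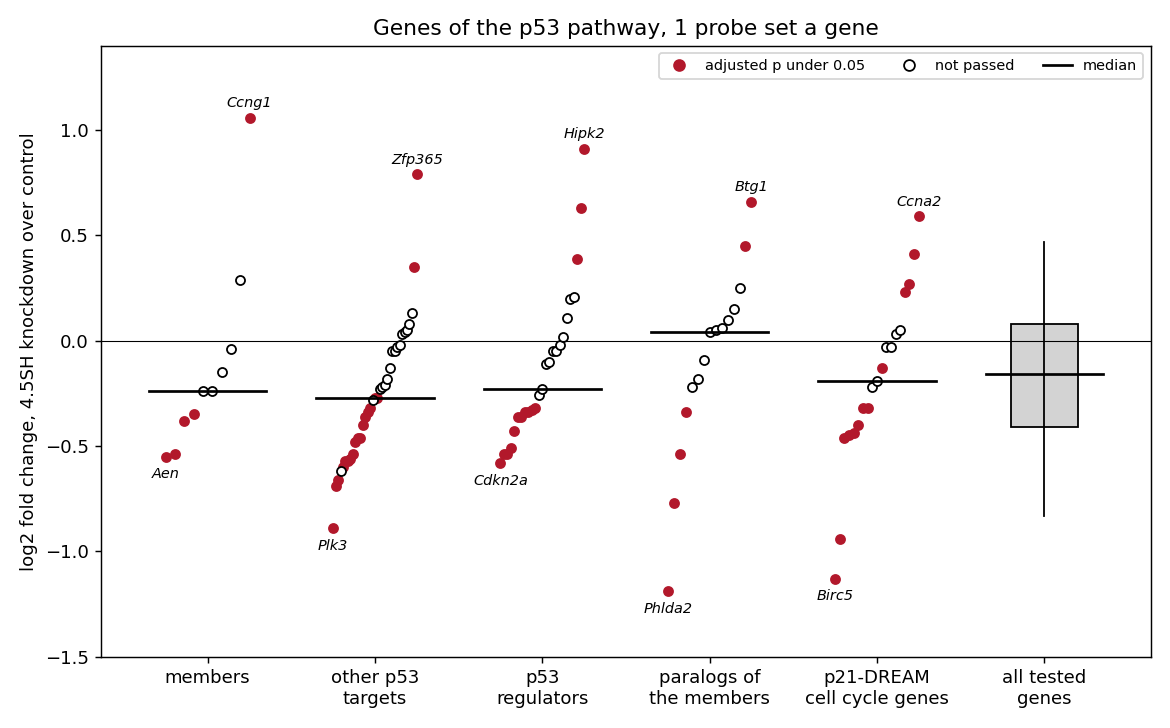
Log2 fold change, 4.5SH knockdown over control, of each tested gene at its brightest probe set, for the 10 members and 4 further lists; filled points had an adjusted p under 0.05, long lines are medians, and the box gives the 25th to 75th percentile of all tested genes with whiskers at the 5th and 95th. The list medians, -0.27 to 0.04, lie within the box, and in each list some genes are called on either side of 0.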

How the data were processed

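The authors deposited intensities, as linear signals from MAS5, which the submitters' processing notes name; version, scaling target and filters are not given in those notes. Per the labels' protocols, 200 ng of poly(A)+ RNA went into each labelling reaction. Of 45037 non-control probe sets 34945 carried 1 gene symbol, 932 several and 9160 none, and 34741 symbols were matched to RefSeq by Entrez identifier. Probe sets at or above the median of the mean log2(signal + 16) were fitted with limma 3.58.1 in R 4.3.3 (eBayes with an intensity trend, two-sided, 13.6 degrees of freedom, Benjamini-Hochberg over all tested). The code was also run on simulated arrays with noise set by mean signal alone. That run cannot show how the fit does on the spread of these arrays. The labels call the replicates biological but name no separate transfections, so the p-values rest on the spread among these samples, which may be technical. Same-numbered replicates showed no shared deviation over the tested probe sets (correlation 0.00), which cannot show whether they were paired in the experiment.

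Members, lists, tests and alternatives were chosen with earlier results of these data known. Named were all members and, from each further list, up to 3 higher and 3 lower genes by p, with Mdm4. Outside this rule Ccng2, Top2a and Mcm5 were named after their values were seen, and markers as their lists give them. Promoters are RefSeq windows on GRCm38.p6, matched by symbol for 8 of 10 members. Python 3.11.15 and matplotlib 3.10.9 drew the figures.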

Additional observations from a re-analysis of the deposited data

How the results depend on the processing

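Over 17 alternatives in the probe set fit (pseudocounts of 1 and 64, 4 scalings, 2 filters, no intensity trend, a replicate block, no _x_at or _s_at probe sets, adjusted p of 0.01 and 0.1, and each array left out), the tested probe sets of the members gave 298 values with the same sign and call, 15 with a lost call, 5 with a gained call and 11 of the other sign, none of these called. Of the members' probe sets 3 were called higher in each, apart from the brightest 25% of probe sets, which held 1 of Ccng1 (1). The 5 called lower became 9 with spike-in scaling and 3 without the filter, without the intensity trend and at an adjusted p of 0.01, and 3 to 4 when an array was left out (3 without knockdown replicate 1 and without control replicate 2). With the replicate block 3 were higher and 5 lower, and no call of a member changed. Per gene 1 was higher (1 to 2 with an array left out, 2 without control replicate 1) and 4 lower, or 7 with spike-in scaling and 3 to 5 with an array left out (3 without either knockdown replicate or control replicate 1, and 5, with Zmat3, without control replicate 2). Per gene only 3 were lower, without Sesn1, with quantile scaling, both median centrings, no filter and an adjusted p of 0.01. The same 3 were lower without _x_at or _s_at probe sets and with the mean of a gene's tested probe sets. At an adjusted p of 0.1 there were 6, against 39.6% of all genes. The array as a whole shifted too. Of all probe sets fitted 25.8% were called lower in the main fit and 34.4% with spike-in scaling. The share was 8.98% without the filter, 17.1% without the intensity trend and 18.2% at an adjusted p of 0.01. Of all genes 35.2% were called lower in the main fit and 45.2% with spike-in scaling. Member values that changed sign were Mdm2 1423605_a_at (0.03, quantile scaling) and 1427718_a_at (-0.07, spike-ins), Btg2 1448272_at (0.07, quantile scaling, and 0.09, centred on tested probe sets) and 1416250_at (-0.03, spike-ins). With an array left out Btg2 1448272_at ran from -0.14 to 0.07 and 1416250_at from -0.02 to 0.22, Aen 1451186_at from -0.46 to 0.00 and Sesn1 1438931_s_at from -0.08 to 0.34. Over all probe sets 2192 were called higher and 5810 lower, against 3808 and 3759 with quantile scaling, 3805 and 3862 centred on tested probe sets, 1116 higher with spike-ins, 1241 without the filter, 1379 higher and 3844 lower without the trend, 1285 at 0.01 and 1207 without knockdown replicate 2. Over all genes 1156 were higher and 4155 lower, against 2086 and 2673 with quantile scaling, and 2037 higher centred on tested probe sets, 567 with spike-ins, 738 at 0.01 and 705 without knockdown replicate 2. Over the gene-level alternatives other p53 targets ranged from 1 to 4 higher and 10 to 22 lower, regulators from 2 to 7 and 8 to 14, relatives from 2 to 4 and 3 to 6, and p21-DREAM genes from 2 to 5 and 7 to 11. The causes were not tested. No detection calls were used, so whether the 3 dim probe sets read signal or background is unknown.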
